A study of Mus musculus with 72 samples.

Results

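Cytochrome P450 (CYP) genes expressed in liver were examined in *Bmal1*-KO mice and in *Bmal1*-KO mice whose *Bmal1* had been returned to muscle (KO+AAV). The set held every protein-coding gene with a symbol that starts with Cyp and a digit and with a mean normalized count above 5 over the 8 liver libraries: 69 of the 100 such genes in the table passed, on 12 chromosomes, out of 16656 genes of any kind above the same level. Just inside the limit lay *Cyp21a1* (mean 7.11), and just outside it *Cyp2j8* (4.99), *Cyp2a4* (3.45), and *Cyp2c65* (3.04). Members were chosen on their level in liver and not on the comparison of the groups. *Cyp21a1* was the 1 member with a mean above 5 in 1 group alone.

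All livers came from male mice of 40 weeks of age collected at ZT1, an hour after lights on. The KO group (4 livers) carried the whole-body homozygous *Bmal1* deletion, and so did the KO+AAV group (4 livers), which had in addition received an AAV9 vector with HA-tagged *Bmal1* under the muscle promoter CK6 at postnatal day 5. WT livers and livers of mice given a control vector were not analysed here, so that any effect of the vector itself and of the *Bmal1* it carries cannot be told apart. Lung, white fat, and heart (4 KO and 4 KO+AAV libraries each) and gastrocnemius (5 and 5) of the same groups and age were used for comparison. The gastrocnemius fit also held 11 libraries of WT mice, which carry intact *Bmal1*, and 19 libraries, WT among them, of mice of 10 weeks. Labels give 1 replicate number per library and do not state whether libraries of different tissues share an animal. The depth, as reads assigned to genes, was 38272351 to 50620493 in KO liver (median 41279782) and 37124342 to 43094694 in KO+AAV liver (median 42058850). Values below are normalized counts, which are reads divided by 1 size factor per library, except where a level is named as CPM, the counts scaled to a common library total, or as RPKM, the same per kilobase of exon.

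CYPs are heme enzymes that insert oxygen into small molecules, most of them in the membrane of the endoplasmic reticulum with electrons from the reductase encoded by *Por*. In liver the CYP1 to CYP3 families clear drugs, toxins, and steroid hormones, the CYP4 family hydroxylates fatty acids, and further families make bile acids and sterols or degrade retinoic acid. Many of the genes lie in arrays of near-identical copies, several differ between male and female mouse liver, and many are induced through the receptors CAR, PXR, PPARα, and AHR.

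The deleted gene was read first. Both groups carry the deletion, so it cannot by itself check which group a library belongs to. *Arntl*, which encodes BMAL1, read 596, 584, 652, and 679 in KO and 949.97, 1231, 781, and 836 in KO+AAV liver. Transcript was still counted in KO liver, and each KO+AAV library lay above each KO library. The difference was 0.58 on the log2 scale (exact permutation test over 70 arrangements, two-sided, *P* = 0.0286, the smallest this design can give). Gene counts do not show where in the gene the reads fall, so reads of the deleted allele and of the vector cannot be told apart. Hepatocyte identity was as labelled: *Alb*, which encodes albumin, read 923817 to 1135531, and all 12 hepatocyte markers were counted in each library. *Xist* read 0 to 9.50 and the Y-linked *Ddx3y* 2633 to 4438, as in male tissue.

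The 69 CYP genes together took 3.05% ± 0.376 of all reads in KO liver and 2.85% ± 0.159 in KO+AAV liver (SD, n = 4), with a range of 2.59% to 3.39% over the 8 libraries. A handful of genes carried most of this: the 5 most counted members held 50.7% to 58.1% of the member reads in each library. *Cyp2e1*, which oxidizes ethanol and other small solvents, was the most counted member in every liver. Its counts were 389018, 220765, 355522, and 302353 in KO and 270698, 384289, 251703, and 264010 in KO+AAV liver. The groups overlapped over nearly their whole range.

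Levels per length spanned from 3382 RPKM for *Cyp2e1* to 0.0550 RPKM for *Cyp2s1* (means over 8 libraries). After *Cyp2e1* came *Cyp2c29* at 1161 RPKM, a drug-metabolizing enzyme, and *Cyp2c70* at 705 RPKM, which makes the muricholic acids that set mouse bile apart from human bile. *Cyp2f2*, known for bioactivating naphthalene, followed at 553 RPKM. *Cyp2c50*, *Cyp2d10*, *Cyp3a25*, and *Cyp2d9*, the last a male-biased testosterone hydroxylase, lay between 444 and 481 RPKM, and *Cyp2c37*, *Cyp3a11*, and *Cyp2c54* between 376 and 384 RPKM. *Cyp27a1*, the mitochondrial sterol hydroxylase that starts the acidic route to bile acids, was the twelfth at 316 RPKM. When the length of the longest transcript replaced that of all exons, the same 12 genes led, with *Cyp3a11* in the fifth place instead of the tenth.

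**Figure D1:**
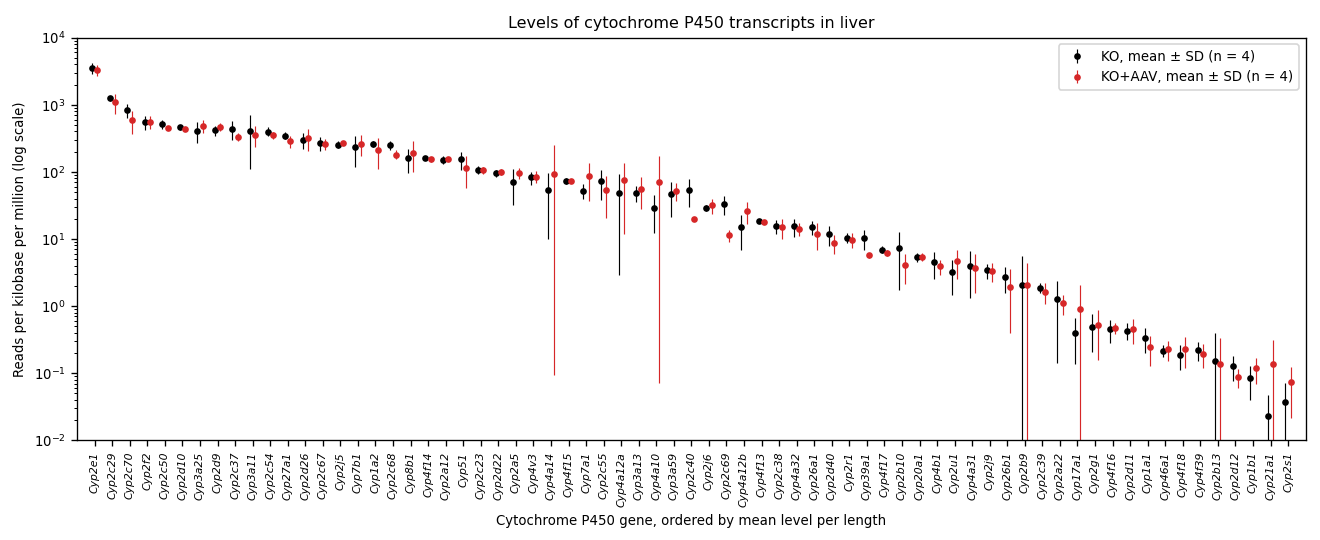
Mean level of each of the 69 CYP genes in RPKM (log axis), ordered by the mean over 8 livers. Black points are KO and red points KO+AAV (mean ± SD, n = 4 libraries each), and bars that reach the lower edge extend below the axis; *Cyp2e1* at 3382 RPKM leads and *Cyp2s1* at 0.0550 RPKM ends the order.

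Members differed widely in how much they varied from liver to liver. Among members with a mean above 50, the coefficient of variation over the 8 livers was largest for *Cyp4a14* (150%), *Cyp4a10* (148%), *Cyp2b9* (133%), *Cyp17a1* (132%), and *Cyp4a12a* (85.5%). The first, second, and last of these hydroxylate fatty acids, *Cyp2b9* is a female-biased gene, and *Cyp17a1* encodes the steroid hydroxylase and lyase of androgen synthesis. It was smallest for *Cyp4f13* (5.05%), *Cyp4f14* (6.44%), *Cyp4f15* (7.09%), *Cyp2d10* (8.74%), and *Cyp2j5* (9.93%), of which the Cyp4f genes degrade leukotrienes and other lipid mediators and *Cyp2j5* makes epoxides of arachidonic acid.

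Single livers set much of this spread. A library was counted as standing apart for a gene where it lay over 2-fold outside the range of the other 7, over genes with a mean above 50. By this measure KO+AAV replicate 2 stood apart for 167 of 12014 genes and for 6 of 58 CYP genes, KO replicate 1 for 52 genes and 4 CYP genes, and KO+AAV replicate 1 for 24 genes and 2 CYP genes. The 5 other libraries stood apart for 4 to 22 genes and for 0 CYP genes. Values without single libraries are given below for the genes and lists named there.

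In KO replicate 1 all 4 outlying CYP genes were low. *Cyp3a11*, the main inducible drug-metabolizing CYP of mouse liver, read 1742 there against 40214 to 149578 in the other 7 livers, 23.1-fold below the lowest of them. *Cyp2a5*, the coumarin hydroxylase, read 1815 against 5831 to 10009, *Cyp3a59* 856 against 2747 to 5670, and *Cyp2b9* 3.45 against 31.8 to 557. Markers of inflammation moved with them: in the same liver *Lcn2* read 1608 against 94.9 to 667 in the others and the chemokine *Cxcl1* 2654 against 63.6 to 233. The median deviation of the 22 tested acute phase and inflammation genes from their own medians was 0.46 on the log2 scale in that liver and between -0.22 and 0.09 in the other 7, with *Hp* and *Hpx* the most abundant. Their part in the low CYP values was not tested.

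In KO+AAV replicate 2 the CYP genes moved both ways. The PPARα targets *Cyp4a14* and *Cyp4a10* read 36913 and 20564, above the 507 to 12376 and 675 to 4147 of the other livers, and *Cyp17a1* read 315 against 21.1 to 81.9. *Cyp1a2*, the caffeine-metabolizing enzyme of pericentral hepatocytes, read 5266 against 17521.5 to 23678, and *Cyp2c55* read 395 against 2075 to 8143. *Cyp51*, the lanosterol demethylase of cholesterol synthesis, read 6513 against 19248 to 37504. The differences between KO+AAV and KO liver described below moved with this library, from -0.37 to -1.58 on the log2 scale for *Cyp4a14* when it was left out, from 0.35 to -0.61 for *Cyp4a10*, and from 0.59 to -0.20 for *Cyp17a1*, none of them a DEG in either fit.

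Other genes of cholesterol synthesis were low in the same liver. The median deviation of 21 of them was -1.55 on the log2 scale there and -0.33 to 0.62 in the other livers, and the lipogenic *Scd1* read 5311 against 113304 to 450714. Several lists of markers of other cells were low as well. The median deviation of 10 sinusoidal endothelial markers was -1.14 (-0.89 in KO replicate 3 and -0.19 to 0.49 in the other 6). That of 8 cardiomyocyte markers was -3.79 (-1.22 to 2.09 in the others). Their summed level was 4.34 CPM there and 26.8 to 192 in the others (most abundant gene *Myh6*). None of the 8 was at 0. The cholangiocyte and lung epithelium lists were not low in this liver (0.26 and 0.39). The part of these differences in the CYP values was not tested.

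KO+AAV replicate 1 stood apart for *Cyp7a1*, the rate-limiting enzyme of bile acid synthesis, at 27144 against 5645 to 12393, and for the retinoic acid hydroxylase *Cyp26b1* at 59.2 against 229 to 887.

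**Figure D2:**
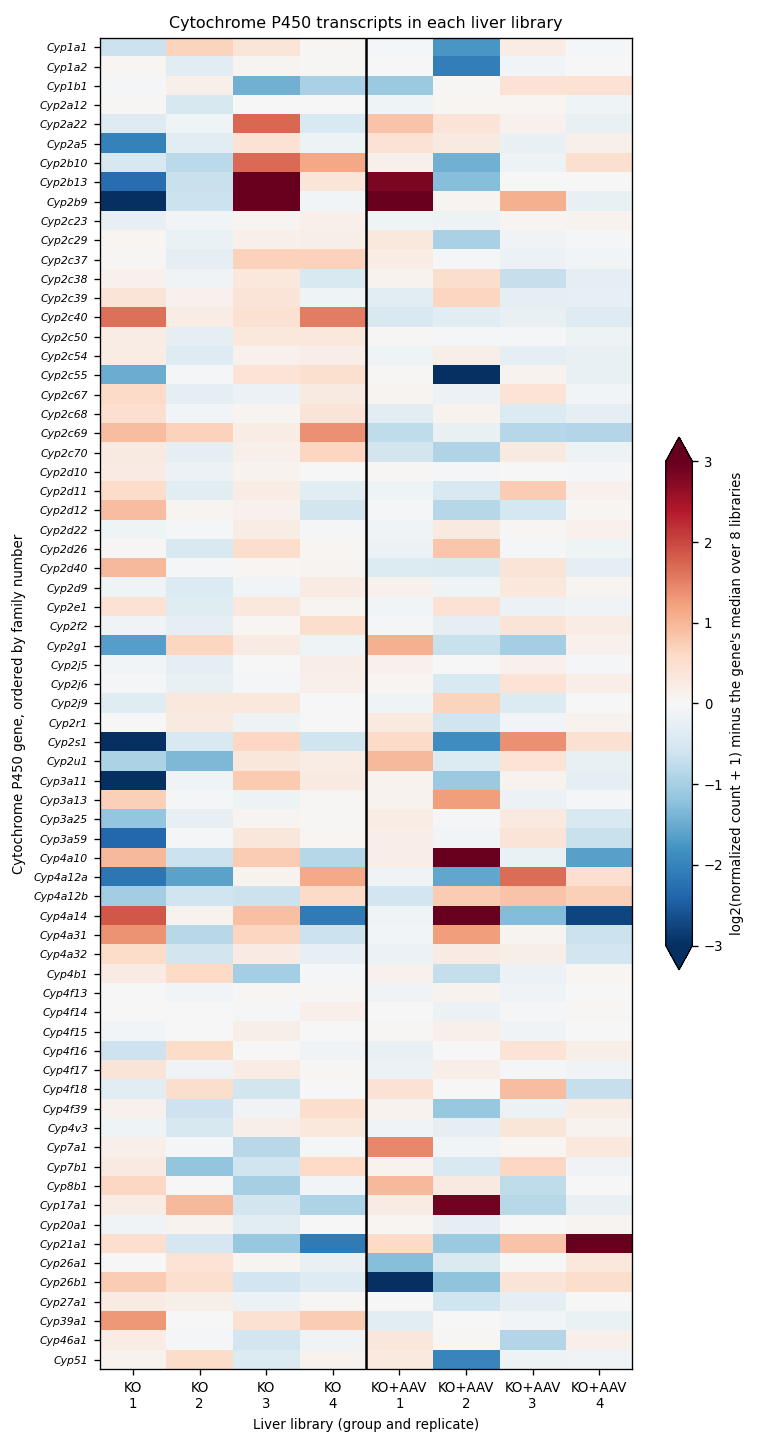
Deviation of each of the 69 CYP genes (rows, by family number) from its own median in each of the 8 livers (columns), in log2(normalized count + 1), with red above and blue below the median and values beyond 3 drawn in the end colors. The deep blue *Cyp3a11* cell of KO replicate 1 and the blue *Cyp51* and *Cyp1a2* cells of KO+AAV replicate 2 are the single-liver values given in the text, and *Cyp2c40* and *Cyp2c69* are red on the KO side and blue on the KO+AAV side.

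KO+AAV liver was then compared with KO liver, which asks whether *Bmal1* returned under a muscle promoter went along with different CYP expression in liver. Of the 69 CYP genes, 3 were differentially expressed genes (DEGs, *P* under 0.01 in limma): *Cyp2c69*, *Cyp2c40*, and *Cyp39a1*, all lower in KO+AAV liver. Over all 16656 genes tested, 91 were DEGs (0.546%), of which 38 were lower in KO+AAV (0.228%). None of the 16656 genes had a Benjamini-Hochberg adjusted *P* under 0.05 in limma (0%), the smallest being 0.994, while 553 had an unadjusted *P* under 0.05, 4 CYP genes among them. edgeR called 0 genes at an adjusted *P* under 0.05 (578 unadjusted), and DESeq2 8. The 69 genes lay evenly about zero, with 34 higher and 35 lower in KO+AAV liver and a median difference of -0.0043 on the log2 scale, against a median of 0.0015 for all genes tested. Adjusted *P* lay between 0.994 and 0.999 for each of the 69, so it is not repeated for every gene below.

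**Figure D3:**
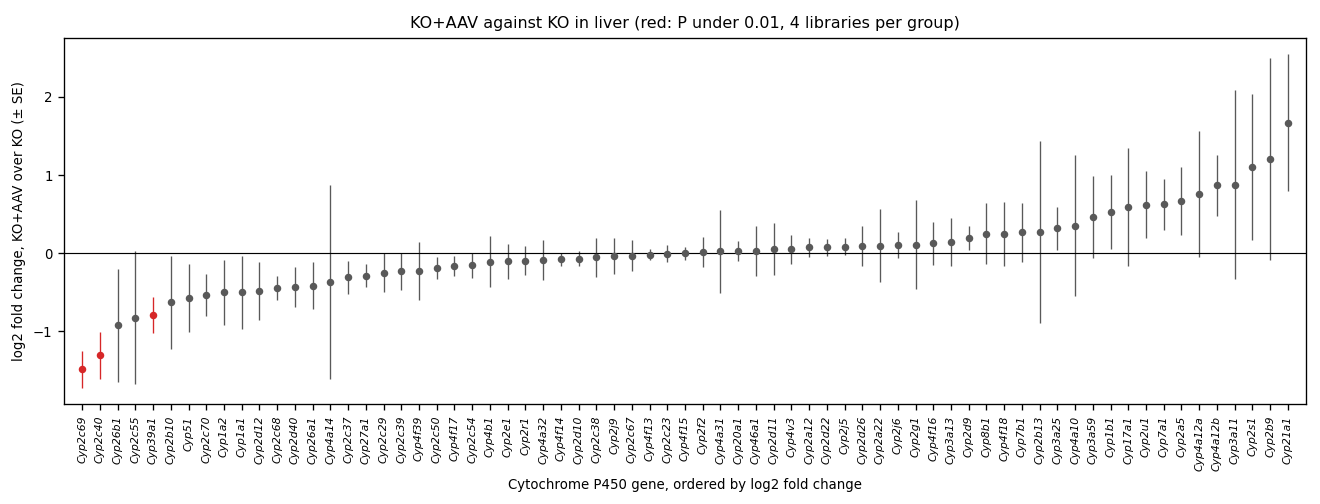
Difference between KO+AAV and KO liver for the 69 CYP genes in log2 units (limma estimate ± SE, 4 libraries per group), ordered from the most negative. Red marks *P* under 0.01: *Cyp2c69* at -1.49, *Cyp2c40* at -1.31, and *Cyp39a1* at -0.79, while the widest bars belong to genes such as *Cyp3a11*, *Cyp4a14*, and *Cyp2b9* in which single livers stood apart.

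*Cyp2c69* and *Cyp2c40* lie next to each other in the Cyp2c array of chromosome 19 on the minus strand, at chr19:39842814-39886799 and chr19:39767071-39812814 (GRCm38, GENCODE vM21). They are copies of 1 ancestral gene together with *Cyp2c67* (chr19:39608842-39649051) and *Cyp2c68* (chr19:39688834-39741054), and a stretch of each promoter is printed below. The stretches below, each 100 bases on the minus strand within 250 bases upstream of the RefSeq start (GRCm38.p6), were the best ungapped match of the 4 genes, and capitals mark bases that differ from *Cyp2c69*. Because they were picked as the most alike, their identity does not describe the rest of the 250 bases. They lie at different distances from the 4 starts.

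Cyp2c69: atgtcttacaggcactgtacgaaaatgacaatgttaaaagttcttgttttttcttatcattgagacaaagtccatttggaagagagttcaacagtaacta

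Cyp2c40: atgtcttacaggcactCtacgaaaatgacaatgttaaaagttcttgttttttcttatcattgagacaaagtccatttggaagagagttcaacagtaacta

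Cyp2c68: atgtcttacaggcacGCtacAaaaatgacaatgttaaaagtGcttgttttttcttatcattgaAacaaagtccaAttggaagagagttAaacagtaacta

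Cyp2c67: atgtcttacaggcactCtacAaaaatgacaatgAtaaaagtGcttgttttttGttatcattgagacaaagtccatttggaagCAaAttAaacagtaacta

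The stretches lie at chr19:39886810-39886909, chr19:39812825-39812924, chr19:39741144-39741243, and chr19:39649133-39649232 in that order. *Cyp2c40* differed from *Cyp2c69* at 1 of 100 bases (99.0% identity), *Cyp2c68* at 7 (93.0%), and *Cyp2c67* at 9 (91.0%). The transcripts are alike as well. Of all windows of 150 bases, 1 read length, in the annotated transcripts, 29.1% of those of *Cyp2c40* and 22.5% of those of *Cyp2c69* also occurred in a transcript of another gene, against 8.8% for *Cyp2c68* and 13.0% for *Cyp2c67*. A single read from such a window cannot be assigned to 1 copy, but the reads were paired and a mate outside it can place the pair. The share of windows is therefore not the share of pairs that cannot be assigned. Whether pairs that fit several copies were counted for a copy or dropped was not tested, so the values of the 4 genes are uncertain in part.

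*Cyp2c69*, the gene with the smallest *P* of all 16656 in liver, read 2447, 2082.5, 1514, and 3335 in KO and 758, 1101, 709.9, and 696 in KO+AAV liver. The highest KO+AAV library lay below the lowest KO library. The difference was -1.49 ± 0.23 on the log2 scale (SE; limma, adjusted *P* = 0.994). *Cyp2c40*, which hydroxylates arachidonic acid, ranked fourteenth. It read 6653, 2478, 2885, and 6185 in KO and 1542, 1713, 1809.8, and 1624 in KO+AAV liver. The KO livers fell into a high and a low pair, and the KO+AAV livers lay close together below both. Its difference was -1.31 ± 0.30 (SE; limma, adjusted *P* = 0.997).

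These were the 2 CYP genes of 69 whose groups did not overlap, which held for 354 of the 16656 genes (2.13%). Both had *P* under 0.01 in each of 19 fits that changed the test, filter, scaling, weighting, or libraries, with differences of -1.68 to -1.30 for *Cyp2c69* and -1.56 to -1.08 for *Cyp2c40*. Without KO replicate 1 and KO+AAV replicate 2 together they were among the 5 CYP genes with *P* under 0.01, of 116 genes in all. One of the 5 was *Cyp21a1*, which passed the filter on low counts through KO+AAV replicate 4. DESeq2 gave them adjusted *P* values of 8.67e-06 and 0.0040.

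The other copies gave smaller differences. *Cyp2c68* read 21427, 14352, 15894, and 19789 in KO and 11969, 16325, 11334, and 12564 in KO+AAV liver, where 3 of 4 libraries lay below all KO libraries and replicate 2 did not. Its difference of -0.45 ± 0.15 (SE) was not a DEG, but became one with KO+AAV replicate 2 (-0.56) or KO replicate 2 (-0.55) left out. *Cyp2c67* read 26257, 14647, 15673, and 21258.5 in KO and 18886, 15699.9, 23559.7, and 16732 in KO+AAV liver, with no order between the groups (-0.03 ± 0.20 SE). Per length, *Cyp2c67* and *Cyp2c68* stood at 264 and 215 RPKM and *Cyp2c40* and *Cyp2c69* at 36.4 and 22.2 RPKM.

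**Figure D4:**
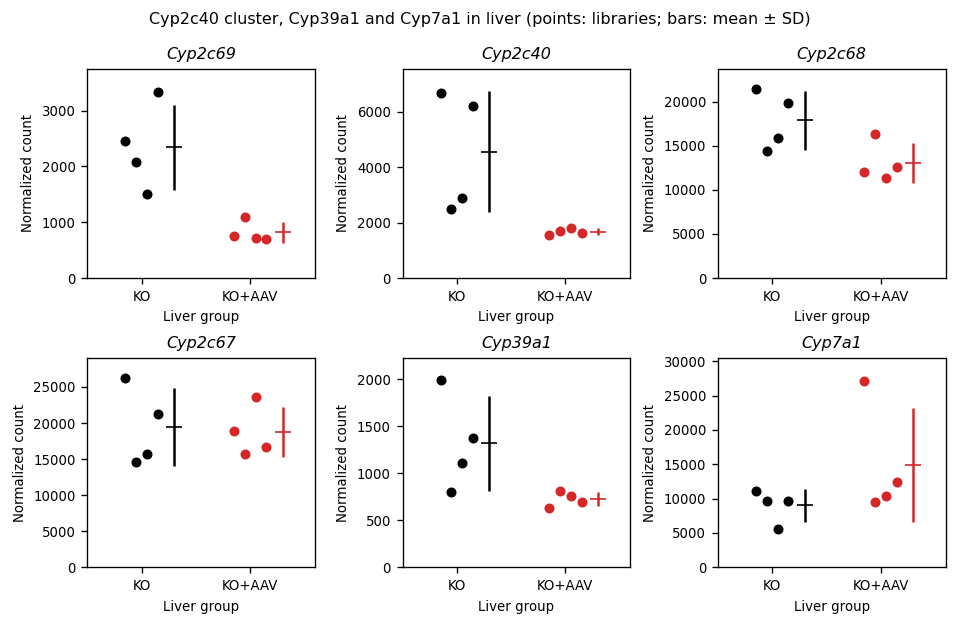
Normalized counts of *Cyp2c69*, *Cyp2c40*, *Cyp2c68*, *Cyp2c67*, *Cyp39a1*, and *Cyp7a1* in each liver (points; black KO, red KO+AAV), with the mean ± SD of 4 libraries beside them and axes that start at 0. The groups are separate for *Cyp2c69* and *Cyp2c40* and overlap in the other panels.

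All 13 Cyp2c members were lower in KO+AAV than in KO liver by the limma estimate, a count noticed after the values were seen, with a median difference of -0.25 and a range of -1.49 for *Cyp2c69* to -0.01 for *Cyp2c23*. Beside *Cyp2c69* and *Cyp2c40* none had *P* under 0.01, and the 13 are not independent. All but *Cyp2c23* lie in 1 array (chr19:39007019-40187333), and 7 share windows of 1 read length with another gene, while 6 share none. The count was also 13 with edgeR, DESeq2, TMM scaling, and recomputed size factors, and fell to as low as 10 when KO+AAV replicate 2 was left out. Cyp2c genes held 33.4%, 31.4%, 31.1%, and 34.1% of the normalized counts of all members in the KO libraries and 31.1%, 23.1%, 30.1%, and 30.6% in the KO+AAV libraries. The low value is KO+AAV replicate 2, and the groups overlapped. The shares of the 3 Cyp2a genes (2.05% to 2.41% in KO and 2.51% to 2.86% in KO+AAV) and of the 7 Cyp2d genes (9.06% to 9.34% and 9.37% to 11.3%) did not overlap, while those of Cyp3a, Cyp4a, and Cyp4f genes did. Shares sum to a fixed total, so that a low share of one subfamily raises the others, and they were not tested.

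The remaining subfamilies had 0 DEGs apart from *Cyp39a1*. All 3 Cyp2a and all 4 Cyp3a members were higher in KO+AAV liver by the estimate, 4 of 7 Cyp2d, 4 of 6 Cyp4a, and 2 of 7 Cyp4f members. Leaving out single livers turned some of these: 2 of the 4 Cyp3a members were lower without KO replicate 1, and 2 of the 3 Cyp2a members without KO replicate 2. With edgeR and DESeq2, 1 member of each was lower. *Cyp3a11* had one of the largest upward estimates, 0.88 ± 1.21 (SE), and its estimate ranged from -0.61 to 1.53 over the 19 fits.

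*Cyp39a1* (chr17:43667425-43751431, plus strand) encodes the hydroxylase that takes oxysterols made in brain into bile acid synthesis. It read 1991, 802, 1108, and 1372 in KO and 634, 805, 755, and 694 in KO+AAV liver. The KO+AAV livers were close together, and the lowest KO liver fell among them. The difference was -0.79 ± 0.24 (SE; limma, adjusted *P* = 0.997), and no window of its transcripts was shared with another gene. It was a DEG in 12 of the 19 fits. Leaving out any 1 of 6 of the 8 livers (KO replicates 1, 3, and 4 and KO+AAV replicates 1, 3, and 4) raised *P* above 0.01. The difference was -0.57 without KO replicate 1, and about as large as with all livers, -0.85 to -0.73, without each of the others.

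The other CYP genes of bile acid synthesis did not pass the test. *Cyp7a1* read 11176, 9669, 5645, and 9600.4 in KO and 27144, 9454, 10408, and 12393 in KO+AAV liver. One KO+AAV liver lay far above all others, and the remaining 3 overlapped with KO (0.62 ± 0.33 SE, or 0.29 ± 0.22 without KO+AAV replicate 1). *Cyp8b1*, the hydroxylase that directs synthesis to cholic acid, read 20052, 12926, 6531, and 12287 in KO and 25678, 15770.4, 7717, and 13187 in KO+AAV liver, again overlapping (0.25 ± 0.39 SE, or -0.04 without KO+AAV replicate 1 and 0.49 without KO replicate 1).

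*Cyp7b1*, the male-biased oxysterol hydroxylase, ranged from 9692 to 33504 in KO and from 15931 to 33855.5 in KO+AAV liver (0.26 ± 0.38 SE). *Cyp27a1* ranged from 26289 to 34968 and from 19725 to 29858 (-0.29 ± 0.15 SE). *Cyp2c70* read 69555.5, 48092, 64358, and 90780.4 in KO and 39228, 31015.5, 69546.5, and 52118.5 in KO+AAV liver (-0.54 ± 0.26 SE). With KO+AAV replicate 2 left out, *Cyp7b1* gave 0.43, *Cyp27a1* -0.17, and *Cyp2c70* -0.35. Of the 7 genes listed for bile acid and oxysterol metabolism, 4 were higher, 3 lower, and 1 a DEG, with a median of 0.03. Without KO+AAV replicate 1 it was 2 higher, 5 lower, and 0 DEGs (median -0.11), and without KO replicate 1 there were 0 DEGs (median 0.15).

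The male-biased *Cyp4a12b*, a fatty acid hydroxylase, had the upward difference nearest to the threshold. It read 879.5, 1191, 1157, and 2669.6 in KO and 1216, 3066, 3273, and 2956 in KO+AAV liver. Most KO+AAV livers were above all KO livers, with replicate 1 among the KO values. Its difference of 0.87 ± 0.39 (SE) was not a DEG, but became one without KO+AAV replicate 1 (1.21) or KO replicate 4 (1.20). Of its windows, 25.9% were shared with *Cyp4a12a*, which gave 0.76 ± 0.81 (SE), or 0.25 to 1.35 with single livers left out.

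The largest upward estimates came from thinly counted or unsteady genes. *Cyp21a1*, the steroid hydroxylase of the adrenal cortex, read 5.18, 2.05, 0.96, and 0 (which allows up to 3 reads) in KO and 5.58, 1.02, 6.91, and 35.1 in KO+AAV liver, a difference of 1.67 ± 0.87 (SE). Without KO+AAV replicate 4 its mean was 3.10, below the filter, and the difference 0.94. *Cyp2b9* followed at 1.20 (0.10 without KO replicate 1), *Cyp2s1* at 1.10 (0.27), *Cyp3a11* at 0.88 (-0.61), and *Cyp4a12b* at 0.87. The largest downward estimates after *Cyp2c69* and *Cyp2c40* were those of *Cyp26b1* at -0.92 (-0.17 without KO+AAV replicate 1), *Cyp2c55* at -0.83 (0.14 without KO+AAV replicate 2), and *Cyp39a1*.

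By function, each list held few or no DEGs. The CYP1 to CYP3 families had 20 of 41 tested genes higher and 2 DEGs (median -0.01), and the CYP4 family 7 of 16 higher and 0 DEGs (median -0.01), 1 of the 16 being the pseudogene *Cyp4f41-ps* (-0.01), which is not among the 69 members. Of the CYPs of sterol and steroid synthesis, 3 were tested and 2 were higher, and of those of vitamin A and D metabolism all 3 were lower (median -0.42), with 0 DEGs in either. Without KO+AAV replicate 2 these counts became 1 of 3 higher in both lists. With single livers left out, the vitamin A and D median lay between -0.64 and -0.17. *Cyp51* gave -0.58 ± 0.44 (SE) and *Cyp1a2* -0.50 ± 0.42 (SE), and without KO+AAV replicate 2 they gave -0.08 and 0.01. *Cyp26a1*, the inducible retinoic acid hydroxylase, ranged from 996 to 1537 in KO and from 478 to 1436 in KO+AAV liver.

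Sex-biased expression was examined because *Cyp2c40* and *Cyp2c69* are on the list of CYPs that are higher in female than in male mouse liver. Of 9 such CYPs tested, 6 were lower in KO+AAV liver, 2 of them DEGs, with a median of -0.24. Those 2 are *Cyp2c40* and *Cyp2c69* themselves, and of the other 7, 4 were lower with 0 DEGs and a median of -0.06. Without KO+AAV replicate 2, 5 of these 7 were lower (-0.23), and without KO+AAV replicate 1 also 5 (-0.15), when the median of all 9 was -0.40. Over the fits with a single liver left out, the median of all 9 lay between -0.40 and 0.0046 (2 to 5 higher, 2 DEGs). Of 7 male-biased CYPs 6 were higher with 0 DEGs and a median of 0.26, which lay between 0.08 and 0.54 with single livers left out (4 to 6 higher, 0 to 1 DEGs). Among genes other than CYPs, 5 of 9 female-biased and 6 of 11 male-biased genes were higher, with 0 DEGs and medians of 0.09 and 0.03. Without KO+AAV replicate 2 it was 2 of 9 and 8 of 11. Over all fits with a single liver left out it was 2 to 7 of 9 (medians -0.21 to 0.31) and 1 to 9 of 11 (-0.22 to 0.18). The most abundant female-biased gene outside the CYPs, the sulfotransferase *Sult1e1*, ranged from 1560.1 to 19133 in KO and from 2149 to 6703 in KO+AAV liver. *Bcl6*, a repressor of female-biased genes in male liver, read 998, 744, 508, and 549.5 in KO and 3568, 352, 4311, and 978 in KO+AAV liver, with KO+AAV replicates 1 and 3 well above all others and replicate 2 the lowest (1.17 ± 0.70 SE). It was a DEG without KO+AAV replicate 2 (1.87 ± 0.47 SE).

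Among the partners and regulators of CYP enzymes no gene was a DEG with all 8 livers. *Por* ranged from 5387 to 10239 in KO and from 3965 to 13438.5 in KO+AAV liver (-0.12 ± 0.34 SE), and of 7 electron donor genes, led by *Pgrmc1* and *Cyb5a*, 6 were lower (3 without KO+AAV replicate 2) and 0 DEGs. Of 8 heme synthesis genes, led by *Alas1* and *Fech*, 2 were higher, and of 27 transcription factors and receptors that control CYP genes, led by *Hnf4a* and *Rxra*, 16 were higher, with 0 DEGs in both (medians -0.06 and 0.04). *Ppara*, *Nr1i3* (CAR), and *Nr1i2* (PXR) gave 0.30, -0.02, and -0.05. With livers left out, DEGs among these genes and the receptor targets below included *Bcl6*, as above, and *Nr0b2* without KO replicate 2 (-0.78). *Fgf21* became a DEG without KO replicate 4 (-3.17, and -3.51 by DESeq2 with all 8), and *Foxa2* without KO replicate 1 and KO+AAV replicate 2 together (-0.50).

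Targets of those receptors outside the CYPs gave 1 DEG. Of the PPARα targets 11 of 18 were higher, and of the CAR and PXR targets 7 of 17 (led by *Gstm1* and *Aldh1a1*), with 0 DEGs and medians of 0.03 and -0.09. Without KO+AAV replicate 2, 4 of the 18 PPARα targets were higher. With single livers left out, 0 to 1 of the PPARα targets were DEGs. Of the CAR and PXR targets 4 of 17 were higher without KO+AAV replicate 1 (median -0.16), and 6 without KO replicate 1 (-0.21). Of 4 AHR targets tested, 3 were lower, and *Tiparp*, which encodes a repressor of AHR, was a DEG. It read 415, 421, 434, and 390.3 in KO and 333, 325, 359, and 324 in KO+AAV liver, without overlap (-0.31 ± 0.09 SE; limma, adjusted *P* = 0.997). It was no longer a DEG with 7 of the 8 livers left out in turn, the exception being KO+AAV replicate 3, at differences of -0.34 to -0.29. The AHR target CYPs *Cyp1a1* and *Cyp1a2* were both lower by the estimate and neither was a DEG, and without KO+AAV replicate 2 they gave -0.06 and 0.01.

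Clock genes were mostly higher in KO+AAV liver, 14 of 18 with a median of 0.13, but *Arntl* was the 1 DEG among them. *Per1* became another without KO+AAV replicate 1 (1.29), and *Nfil3* without KO replicate 1 and KO+AAV replicate 2 together (0.45). The CYP-controlling clock output factors *Dbp*, *Tef*, and *Hlf* gave 0.21, 0.12, and 0.21. In the 250 bases upstream of the start, the E-box CACGTG, the letters BMAL1 and CLOCK bind, occurred in 2 of the 52 CYP genes with a promoter entry (*Cyp2j6* and *Cyp4v3*) and in 6.02% of all 32851 promoters, and the D-box TTATGTAA in 0 and in 0.819% (both strands were searched, and a match to one motif cannot be a match to the other). A window without a match says only that these letters are not in it.

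Cell type markers were set beside these values. All 12 hepatocyte markers were tested, 8 were higher and 0 were DEGs, with a median of 0.06. Markers of Kupffer cells and macrophages were lower for 12 of 12 genes, with a median of -0.59 and 0 DEGs, and summed to 265, 327, 99.4, and 148 CPM in KO and 185, 80.8, 129, and 118 in KO+AAV liver (most abundant genes *Clec4f* and *Cd5l*, none of the 12 at 0). The higher sums were those of KO replicates 1 and 2, and the groups overlapped. With single livers left out, all 12 genes were lower in each fit, with medians of -0.86 to -0.35 and 0 to 3 DEGs. In bulk tissue, fewer cells of a type and less RNA per cell cannot be told apart. Sinusoidal endothelial markers were lower for 9 of 10 genes (median -0.29), or for 6 of 10 without KO+AAV replicate 2 (-0.02), periportal hepatocyte genes other than CYPs higher for 10 of 12 (median 0.31, led by *Ass1* and *Pigr*), and pericentral ones lower for 8 of 12 (median -0.22, led by *Oat* and *Rgn*), with 0 DEGs in each. Without KO replicate 1 the periportal and pericentral medians were 0.15 and -0.08, and without KO replicate 1 and KO+AAV replicate 2 together 0.07 and -0.02. With both of these livers left out, 8 of the 10 endothelial genes were higher (median 0.11), and 11 of the 12 Kupffer cell and macrophage genes were lower with a median of -0.25. Single livers left out gave 0 to 1 DEGs in each of the hepatocyte, periportal, and pericentral lists. The part of these lists in the differences of *Cyp2c69*, *Cyp2c40*, and *Cyp39a1* was not tested.

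Genes of cholesterol synthesis other than *Cyp51* were lower for 21 of 21 (median -0.38, 0 DEGs), in the same direction as *Cyp51*, with KO+AAV replicate 2 far below the rest as given above. Without that library 5 of 21 were lower (median 0.04). Acute phase and inflammation genes were lower for 17 of 22 (median -0.12, 0 DEGs), with KO replicate 1 the high library, and for 9 of 22 without it (median 0.05).

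Across tissues, liver carried most CYP expression, in part because members were chosen on their level there. By median CPM over KO and KO+AAV libraries together, 54 of the 69 genes were highest in liver, 12 in lung, 3 in white fat, and 0 in heart or gastrocnemius. With the next tissue set to no less than 3 reads in the shallowest library (0.322 CPM), liver was at least 10-fold above it for 36 genes and at least 100-fold for 26. *Cyp2b13* and *Cyp21a1*, counted among the 54, had liver medians of 0.0941 and 0.0854 CPM, below that limit, so their order is not clear. *Cyp2f2* was higher in lung (4603 CPM) than in liver (1057), as were *Cyp4b1* (685 against 9.75), *Cyp2s1* (361 against 0.265), *Cyp2b10* (268 against 9.09), and *Cyp26b1* (105 against 13.1). *Cyp2f2* and *Cyp4b1* are known for activating toxins in airway cells. The other genes highest in lung were *Cyp39a1* (30.5 against 19.6), *Cyp20a1*, *Cyp4f16*, *Cyp4f18*, *Cyp4f39*, *Cyp1a1*, and *Cyp46a1*, at 1.79 to 28.4 CPM. For *Cyp39a1*, lower in KO+AAV than in KO liver, the order holds for the pooled medians only. Its libraries spanned 25.3 to 36.5 CPM in lung and 15.3 to 45.6 in liver. White fat was highest for *Cyp1b1* (34.3 against 0.638 in liver), *Cyp4f17* (30.5 against 20.0), and *Cyp2j9* (10.8 against 10.6, which is no clear order). Tables of the tissues were scaled separately, so levels were set side by side only as CPM.

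**Figure D5:**
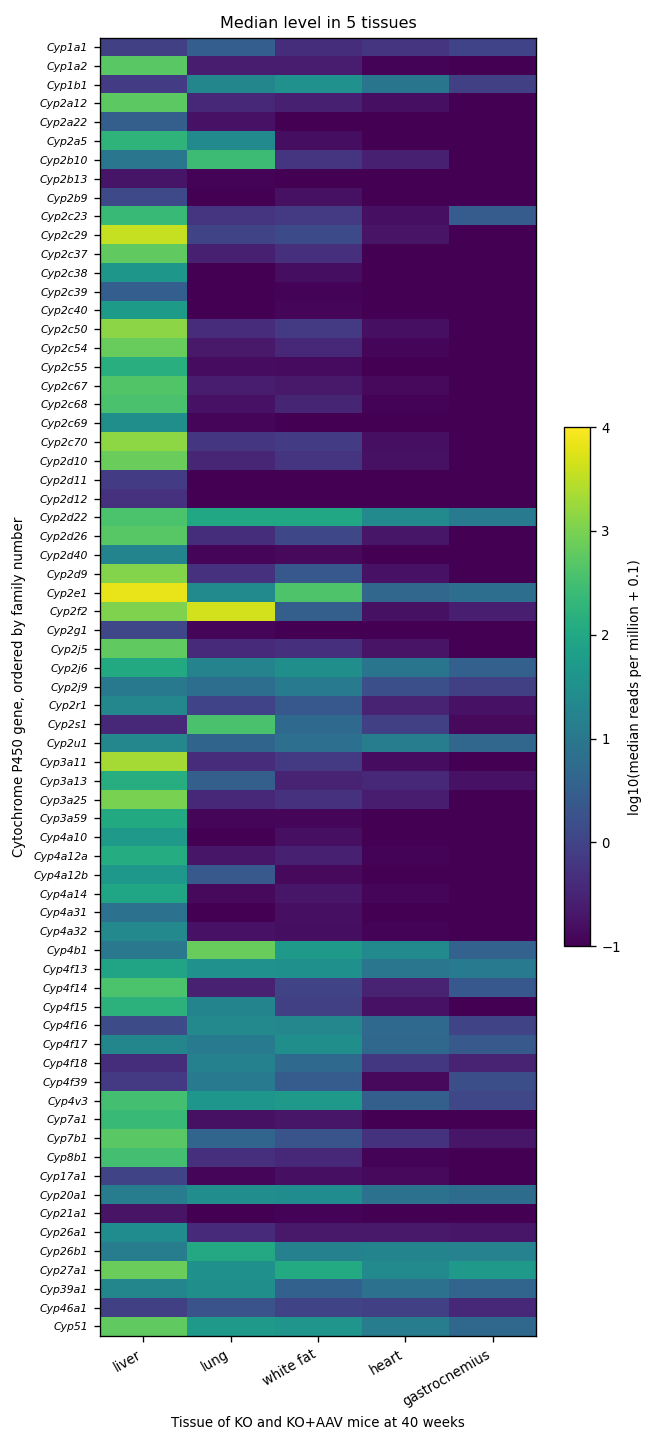
Median level of each of the 69 CYP genes in 5 tissues, over the KO and KO+AAV libraries at 40 weeks together (color: log10 of CPM + 0.1, from dark for the lowest to yellow for the highest; 8 libraries per tissue, 10 in gastrocnemius). The liver column is the brightest for 54 genes, and *Cyp2f2*, *Cyp4b1*, and *Cyp2s1* are brightest in lung.

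A heart and a white fat library stood apart in ways that touch these genes. KO heart replicate 2 held liver transcripts: *Alb* read 859141 there and 153 to 216 in the other 7 hearts, *Cyp2e1* 147676 against 23.0 to 274, and *Cyp2c29* 116209 against 0 to 4.92. Of the 69 CYP genes, 61 were above all other hearts in this library, 50 of them over 10-fold, and the 12 hepatocyte markers summed to 51245 CPM against 37.6 to 145. KO white fat replicate 2 held *Gpx5*, an epididymis gene, at 748500 against 0 to 1.59. The counts below are given with and without these libraries.

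The comparison of KO+AAV with KO in the other tissues gave 1 CYP gene. In lung 1 of 48 CYP genes tested was a DEG (19 higher, median -0.07), while 835 of 21072 genes were (3.96%). In white fat it was 0 of 55 (44 higher, median 0.50; all genes 0.0711%), in heart 0 of 63 (4 higher, median -2.05; all genes 0.0829%), and in gastrocnemius 0 of 22 (12 higher, median 0.04; all genes 3.25%). Of the 63 heart genes, 37 passed the filter on low counts through KO replicate 2 alone. With that library left out and the filter redone, 26 were tested, 11 were higher, the median was -0.11, and 0 were DEGs. Without KO replicate 2 of white fat the median was 0.67 with 41 of 55 higher and still 0 DEGs. The 12 hepatocyte markers, with *Trf* the most abundant and none at 0, summed to 1619.5, 833, 1390.03, and 2189 CPM in KO and 1761, 2038, 2431, and 2131 CPM in KO+AAV white fat. *Alb* alone read 1035, 1976, 590, and 831 in KO and 2522, 594, 4400, and 1076 in KO+AAV white fat. *Cyp2c29* read 95.4, 185, 11.9, and 17.3 in KO and 368, 20.0, 1232, and 24.1 in KO+AAV. KO+AAV replicates 1 and 3 were thus the highest libraries for both genes. The part of liver transcripts in this shift was not tested.

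The lung gene was *Cyp4a12b*. It read 3.15, 53.7, 19.2, and 39.0 in KO and 569, 157, 802, and 768 in KO+AAV lung, every KO+AAV library above every KO library (4.55 ± 0.81 SE; limma, adjusted *P* = 0.098). Cardiomyocyte markers moved with it: the 8 genes, led by *Myh6*, summed to 106, 651, 703, and 1065 CPM in KO and 3553, 1425, 4598, and 5127 in KO+AAV lung, with 1 of the 8 at 0 in KO replicate 1 and none in the other 7. In the 7 hearts without liver transcripts *Cyp4a12b* read 0 to 3.69. The hepatocyte markers in lung summed to 421 to 602 in KO and 482 to 666 in KO+AAV. The part of the cardiomyocyte markers in the lung result was not tested.

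Whether the change in liver differed from that in another tissue was tested as a difference of differences. Of the CYP genes, 0 of 48 passed against lung (all genes 0.781%), 0 of 55 against white fat (0.356%), and 0 of 63 against heart (0.42%). In the comparison with heart, edgeR and DESeq2 called 41 and 37 CYP genes, with their counts over all genes given among the alternatives below. By limma it was 0 of 63 with KO heart replicate 2 kept in, and 0 of 26 with it left out and the filter redone. No edgeR or DESeq2 fit without that library is given here, so the limma fit does not bear on their calls. *Cyp2c69* and *Cyp2c40* were too low in lung, white fat, and gastrocnemius to be tested, and in heart they were counted in KO replicate 2 alone, so that their tests against heart, called for both by edgeR and DESeq2 and for neither by limma, rest on that library. For *Cyp39a1*, the liver change was below that of lung by 0.72 ± 0.39 (SE), of white fat by 0.63 ± 0.39, and of heart by 0.57 ± 0.39. Its own difference was -0.07 in lung, -0.16 in white fat, -0.22 in heart, and 0.45 in gastrocnemius. Without KO heart replicate 2, which read 565 against 278 to 337 in the other KO hearts, the heart difference was 0.01 and the liver change lay 0.80 ± 0.37 (SE) below it, and without KO white fat replicate 2 the white fat difference was 0.18. The liver change of *Cyp39a1* passed *P* under 0.01 against white fat without KO white fat replicate 2 (-0.98), and with library weights against lung (-0.83), white fat (-1.03), and heart (-0.91).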

How the data were processed

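RNA-Seq libraries (poly(A)-selected, paired reads of 150 bases) were used: 8 each of KO and KO+AAV liver, lung, white fat, and heart at 40 weeks, all from 1 sequencing site, and 34 of WT, KO, and KO+AAV gastrocnemius at 10 and 40 weeks from 2 sites. Per the submitters' processing notes, alignment to GRCm38 (mm10) used HISAT2 and counting used HTSeq. What the authors deposited is a signal per gene: its count after division by the DESeq2 size factor of the library. Whole reads were recovered at every value (within 0.01 reads). The strand setting and annotation release behind the counts are not given in the sources used here, so genes that overlap another gene are uncertain (*Cyp2f2*, 13.5% of its exon bases, and *Cyp2u1*, 10.5%, the most among the members).

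Log2(normalized count + 1) was tested in R 4.3.3 by limma 3.58.1, with an intensity trend, over genes with a mean above 5 in the tissue. DEGs have *P* under 0.01, the threshold of the study, with Benjamini-Hochberg adjustment over all genes tested. The study applied this threshold to DESeq2, by which 176 genes passed here in liver, 4 of them CYP genes. Gastrocnemius was fitted in 1 model of 6 groups with site as covariate, and differences between tissues in 1 model of 8 groups. *Arntl* was tested by exact permutation. Where nothing says that libraries came from separate animals, *P* values measure the spread between libraries only. Pseudocount 0.5, other filters, edgeR 4.0.16, DESeq2 1.42.0 (both on recovered reads), other scalings, library weights, a replicate block, and each library left out in turn were alternatives. The fits were tested on simulated data. Python 3.11.15 and matplotlib 3.10.9 drew the plots.

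RPKM used recovered reads and the exon length of GENCODE vM21. Promoters are from RefSeq (52 of 69 members matched). Counting error covers reads only, and 3 reads were taken as the limit for a count of 0.

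Members and lists were chosen with earlier results of these data known. Named were *Arntl*, *Por*, the 12 highest members per length, DEGs, the 5 largest differences in each direction, the 5 largest and 5 smallest coefficients of variation, members highest outside liver, members of set families, and of each list its DEGs and 2 most abundant genes. Some of the genes this rule names are not reported here. *Lcn2*, *Cxcl1*, *Scd1*, *Bcl6*, *Per1*, *Nfil3*, *Nr0b2*, *Fgf21*, *Foxa2*, *Cyp4f41-ps*, *Ppara*, *Nr1i3*, *Nr1i2*, *Dbp*, *Tef*, *Hlf*, *Xist*, *Ddx3y*, *Cyp2c23*, *Cyp2c67*, *Cyp2c68*, *Cyp3a59*, *Cyp2d26*, *Gpx5*, and further members given for a single liver were named after their values were seen.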

Additional observations from a re-analysis of the deposited data

Results flagged for a closer look

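Single libraries lay far from the rest of their group (gap to the nearest library over the whole range, above Dixon's 95% limit) in 14 of 138 groups of 4 livers (10.1%). About 1 in 20 would be flagged among normal and independent groups, which related genes counted in the same livers are not. The share over all liver genes is not given here, so no excess among the CYP genes can be read from this. In KO replicate 1, *Cyp3a11* read 1742 (81655 to 149578 in the 3 other KO livers), *Cyp3a59* 856 (4199.8 to 5540.0), and *Cyp2d40* 1400.02 (683 to 753). In KO replicate 2, *Cyp2c50* read 46252 (65091 to 69692), *Cyp2c54* 21693 (30959 to 33244), *Cyp2a12* 16606 (23156.5 to 23938), and *Cyp1a2* 17521.5 (22959 to 23678). KO replicate 3 held *Cyp2a22* at 413 (90.7 to 115).

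In KO+AAV replicate 2, *Cyp1a2* read 5266 (20981 to 22310.4 in the 3 other KO+AAV livers), *Cyp2c55* 395 (5017 to 6308), *Cyp1a1* 9.20 (32.3 to 38.5), *Cyp2d26* 37466.5 (18687 to 20409), and *Cyp2c39* 192 (98.2 to 103). *Cyp4a12b* read 1216 in KO+AAV replicate 1 (2956 to 3273). None of these 13 genes was a DEG in liver.

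Outside liver, *Alb* read 859141 in KO heart replicate 2 and *Gpx5* 748500 in KO white fat replicate 2, with the ranges of the other libraries given above.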

How the results depend on the processing

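Over the alternatives no call turned its direction. *Cyp2c69* and *Cyp2c40* kept *P* under 0.01 in liver in all 19 fits, while with a replicate block *Cyp39a1* (-0.79) lost it and *Cyp4a12b* (0.87) gained it. *Tiparp* lost it with library weights (-0.28), the block (-0.31), and both livers that stood apart left out (-0.29), and *Cyp2c68* gained it with DESeq2 (-0.45) and library weights (-0.55). The causes were not tested.

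The 91 DEGs of liver became 176 without the filter on low counts, 59 with a mean above 50, 176 with DESeq2, and 67 to 117 with single livers left out. The 3 CYP genes became 2 to 5 with single livers left out: 2 without KO replicate 1 or 3 or KO+AAV replicate 3 or 4, and 5 without KO replicate 2, where *Cyp2c68* and *Cyp2c50* (-0.33) joined. Without KO replicate 1 and KO+AAV replicate 2 together, a choice made after seeing the data, they were again 5 (with *Cyp2c68* and *Cyp21a1*).

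In the other tissues, the counts of all DEGs moved as follows. Without the filter there were 56 in white fat, 80 in heart, 823 in gastrocnemius (1 CYP gene, *Cyp2c67*), and 406, 215, and 180 for the differences of liver from lung, white fat, and heart. With a mean above 50 there were 6 in white fat, 8 in heart, and 71, 29, and 28 for these differences. DESeq2 gave 125 in white fat (1 CYP gene, *Cyp3a59*), 82 in heart (1, *Cyp1a1*), 1 CYP gene in gastrocnemius (*Cyp4f17*, also 1 with edgeR), and 225 and 835 (37 CYP genes) for liver against white fat and heart, where edgeR gave 163 and 828 (41 CYP genes). Against heart, 15705 genes were tested in limma, 63 of them CYP genes. Library weights gave 1392 in lung (2 CYP genes, *Cyp4a12b* and *Cyp2u1*), 113 in white fat (1, *Cyp2a5*), 100 in heart, and 546 (2), 123 (1), and 135 (1) for the differences from lung, white fat, and heart, *Cyp39a1* in each and *Cyp4a12b* also against lung. Models of 2 tissues alone gave 248 (1 CYP gene, *Cyp4a12b*), 23, and 32, and gastrocnemius with 2 groups alone 175.

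With single libraries left out, DEGs numbered 418 to 1098 in lung (1 to 3 CYP genes, with *Cyp2e1* and *Cyp2u1* added without KO replicate 3), 4 to 39 in white fat (0 to 1, *Cyp2f2* without KO replicate 1), 4 to 66 in heart (0 to 2, the 2 being *Cyp2c67* and *Cyp3a25* without KO replicate 2), 358 to 716 in gastrocnemius (0 to 1, *Cyp39a1* without KO replicate 5), and 50 to 178 (0), 32 to 200 (0 to 1), and 38 to 171 (0) for the differences from lung, white fat, and heart. The median of CYP genes in heart ranged from -3.07 to 0 and in white fat from 0.18 to 0.87, and the difference from heart had a median of 1.92, or 0.06 without KO heart replicate 2. With the filter redone without KO replicate 2, a choice made after seeing the data, there were 27 DEGs in heart (0 CYP genes, *Cyp2c67* no longer tested and *Cyp3a25* not called), 37 for the difference from heart, and 32 for the difference from white fat (1 CYP gene, *Cyp39a1*). *Arntl* in liver differed by 0.44 to 0.66 (exact permutation *P* 0.0286 to 0.0571, the former the smallest possible with 7 livers).

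The replicate numbers did not pair the KO and KO+AAV livers: same-numbered KO and KO+AAV libraries correlated at 0.0057, -0.13, -0.13, and -0.03 in their deviations from the group means. Across tissues, same-numbered libraries correlated with liver at 0.08 to 0.32 in lung (5 of 8 above 0.1), -0.09 to 0.19 in white fat, and -0.16 to 0.18 in heart. With the number as a block the differences of liver from these tissues again had 0 CYP genes (133, 79, and 81 DEGs). A replicate block gave 36 DEGs in white fat and 305 in gastrocnemius, and for *Arntl* in liver the same 0.58 with an exact *P* of 0.125, the smallest possible with 4 pairs.

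Depth limits the lowest members: *Cyp2s1*, *Cyp2b13*, and *Cyp21a1* had livers with 0 reads. Groups of 4 bound the spread poorly, as the single livers above show, and reads that fit several copies (*Cyp2c40*, *Cyp2c69*, *Cyp4a12a*, *Cyp4a12b*) leave their values uncertain in part.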

Other observations

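Markers of further cell types gave 0 DEGs with all 8 livers. Erythroid genes were lower in KO+AAV liver for 5 of 5 tested (median -0.94, led by *Hbb-bs* and *Hba-a1*), lymphocyte and plasma cell genes higher for 7 of 10 (median 0.58, led by *Ighm* and *Igkc*), and stellate cell and fibroblast genes lower for 7 of 10 (median -0.09, led by *Dcn* and *Ecm1*). Cholangiocyte genes were higher for 2 of 6 (median -0.19), cardiomyocyte genes for 1 of 8 (-0.47), lung epithelium genes for 2 of 4 (0.28), and the 1 epididymis gene tested (0.41). The adipocyte (3), skeletal muscle (3), and pancreatic acinar (2) genes tested were all lower, with medians of -0.29, -0.20, and -0.55. Without KO+AAV replicate 2, 7 of 8 cardiomyocyte (median 0.56), 6 of 10 stellate cell and fibroblast (0.05), and 2 of 3 skeletal muscle genes (0.23) were higher, the erythroid median was -0.54, and 1 of the 2 pancreatic acinar genes was lower. In the same fit 9 of 10 lymphocyte and plasma cell genes were higher (0.63), with 1 DEG in the list. Without KO+AAV replicate 1 all 8 cardiomyocyte genes were lower (-1.24), and the skeletal muscle median was -1.06. Without KO replicate 1 the lymphocyte and plasma cell median was 0.16 and that of lung epithelium -0.0012.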
